A study of Mus musculus with 99 samples.

Results

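The 5 mouse dopamine receptor genes, Drd1 to Drd5, were followed through bulk RNA sequencing of 5 brain regions. They were found by their symbols among the 55335 gene identifiers of the count tables, and all 5 were present. The mice were wild-type juvenile offspring of C57BL/6 dams. In the fentanyl group the dams drank 10 µg/ml fentanyl in their water from embryonic day 0 until weaning, and the other group is labelled water. Punches were taken from females and males of both groups in the nucleus accumbens (NAc, ventral striatum), ventral tegmental area (VTA, midbrain), ventrobasal thalamus (VBT), and 2 cortical areas, prelimbic (PrL) and primary somatosensory (S1). Each of the 20 groups held 5 libraries, except S1 male water with 4, so the series holds 99. The pups received the drug through the dam, and the labels give neither the dose that reached a pup, nor the litters, nor whether punches of different regions came from the same animals. P-values therefore measure the spread between these libraries, part of which may be technical.

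Dopamine receptors are G protein-coupled receptors of 2 classes. The D1 class (Drd1, Drd5) couples to stimulatory G proteins and raises cyclic AMP, and the D2 class (Drd2, Drd3, Drd4) couples to inhibitory G proteins and lowers it. In the striatum, to which the NAc belongs, Drd1 and Drd2 mark the 2 main populations of projection neurons. Drd2 is also the autoreceptor of midbrain dopamine neurons, whose cell bodies lie in the VTA. In the cortex, Drd1 is found in deep-layer pyramidal neurons among others.

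On GRCm38 with the GENCODE M21 annotation, Drd1 (ENSMUSG00000021478) lies on chromosome 13 from 54051183 to 54055705, minus strand. Drd5 (ENSMUSG00000039358) is a gene of 1 exon on chromosome 5 from 38319367 to 38322518, plus strand, and shares 1531 exon bases with the antisense gene Gm26560. Whether the counting used strand is not given in the sources used here, so reads of these overlapping genes may not be told apart. Drd2 (ENSMUSG00000032259) spans chromosome 9 from 49340627 to 49408177, plus strand. Drd3 (ENSMUSG00000022705) spans chromosome 16 from 43754026 to 43822932, plus strand, and hosts the miRNA gene Gm25996 outside its exons. Drd4 (ENSMUSG00000025496) lies on chromosome 7 from 141292006 to 141296464, plus strand. Counts were per gene, so the long and short isoforms of Drd2 are summed.

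Drd1, Drd2 and Drd3 had their highest level in the NAc, where Drd1 and Drd2 varied almost together between libraries and Drd3 less so. The bases before a RefSeq start of each (build GRCm38.p6, read 5′ to 3′ on the gene's strand, up to the first base in a GENCODE exon of the gene) are therefore shown, with GC boxes (GGGCGG on either strand) in capitals. The Drd1 start is the outer of 2, and the Drd3 start lies inside the GENCODE gene.
Drd1, chr13:54055706-54055908, minus strand: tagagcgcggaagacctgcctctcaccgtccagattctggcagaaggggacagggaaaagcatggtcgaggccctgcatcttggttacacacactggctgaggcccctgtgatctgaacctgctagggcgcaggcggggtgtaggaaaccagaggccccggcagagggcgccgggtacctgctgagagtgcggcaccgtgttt
Drd2, chr9:49340153-49340402, plus strand: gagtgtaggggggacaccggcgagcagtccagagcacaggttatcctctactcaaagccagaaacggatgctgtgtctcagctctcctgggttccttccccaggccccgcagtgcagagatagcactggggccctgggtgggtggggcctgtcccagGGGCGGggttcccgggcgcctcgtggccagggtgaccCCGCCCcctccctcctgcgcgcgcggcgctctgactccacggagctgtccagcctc
Drd3, chr16:43761971-43762207, plus strand: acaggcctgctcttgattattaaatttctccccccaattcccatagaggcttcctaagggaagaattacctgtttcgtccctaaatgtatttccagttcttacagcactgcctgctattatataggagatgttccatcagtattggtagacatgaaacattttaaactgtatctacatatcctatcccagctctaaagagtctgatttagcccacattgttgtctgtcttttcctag
Over the 250 bases before each start, the GC content was 64% for Drd1, 68.8% for Drd2 and 39.2% for Drd3, against a median of 52.4% over all 32851 RefSeq starts. The same windows held 15, 15 and 1 CG dinucleotides, against a median of 6. The GC box was found before Drd2, Drd4 and Drd5 and before the inner of the 2 Drd1 starts, but not in the window of Drd3, and 32.7% of all starts hold it. The letters TATAAA (12.4% of all starts) and TGACGTCA (1.55%) were searched on both strands too and stand before no start of the 5 genes.

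Library totals over genes ranged from 16515545 to 52069639 counts. Levels are given as counts scaled to a total of 1000000 (CPM), and per kilobase of exon where genes are compared with each other. VTA male water 3, in which fewer than 10000 genes had a count and all 5 receptor genes had 0 counts (up to 3 counts, or 0.182 CPM, are allowed by that), was left out, so 98 libraries were used. Marker lists matched the labels: the summed thalamus list (5 genes) was at 961 CPM or more in the VBT and at most 83.8 in other regions, and the midbrain dopamine neuron list (6 genes) was at 335 or more in the VTA and at most 69.3 elsewhere. The striatum list (5 genes) was at 1371 CPM or more in the NAc but reached 899.8 in 1 VBT library, and the cortex list (5 genes) reached 1373 in 1 NAc library against 1245 to 2191 in S1 and PrL. No marker of these lists was at 0 throughout its own region.

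**Figure D1:**
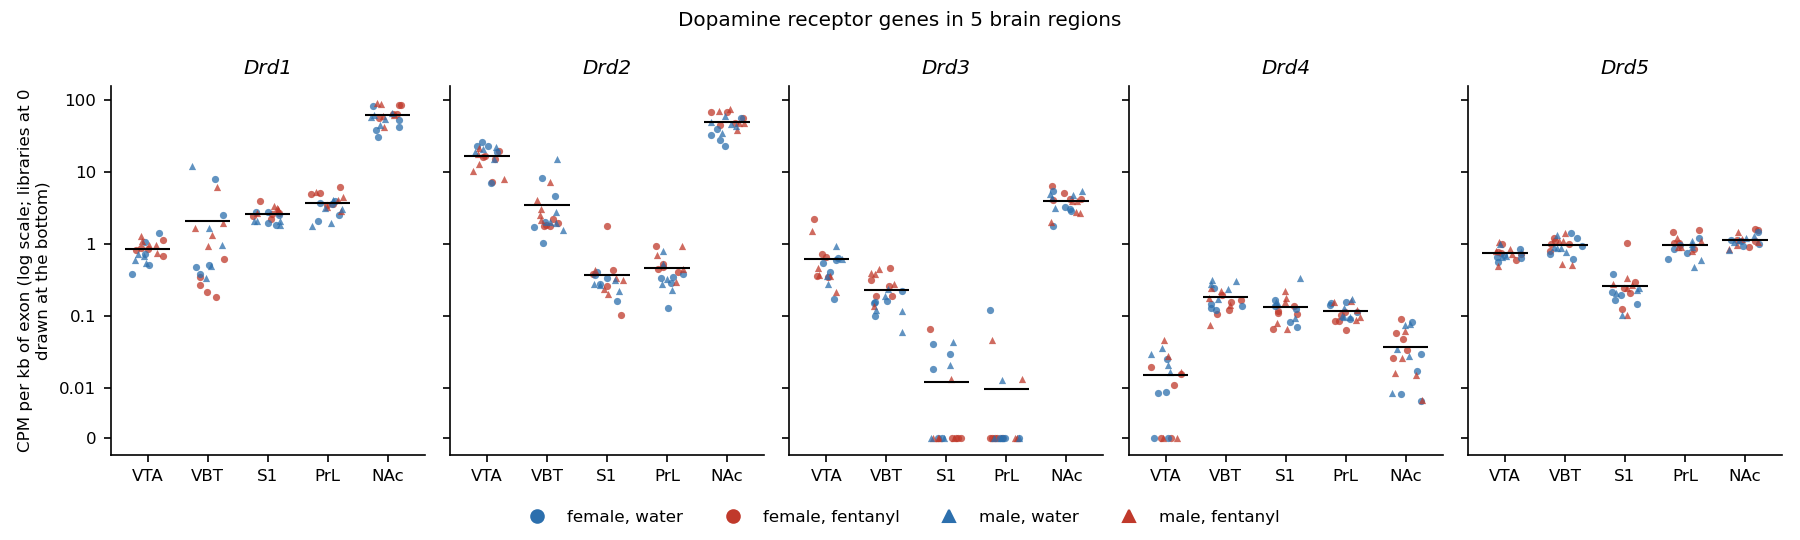
CPM per kilobase of exon (log scale) of each receptor gene in the 5 regions. Points are libraries coloured by exposure and shaped by sex, and lines are means: Drd1, Drd2 and Drd3 are highest in the NAc, Drd4 is low in every region, and Drd5 is lowest in S1.

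Drd1, the main D1-class receptor of the striatum, was far higher in the NAc than in any other region. Its NAc level was 224 ± 64.1 CPM (SD, n = 20), with lowest 111, median 221 and highest 335 CPM. It was 13.3 ± 4.23 CPM (SD, n = 20) in the PrL, 9.40 ± 2.06 CPM (SD, n = 19) in S1, 7.50 ± 11.4 CPM (SD, n = 20) in the VBT and 3.08 ± 0.986 CPM (SD, n = 19) in the VTA. The VBT mean was carried by a few libraries: the values ran from 0.657 to 44.1 CPM around a median of 2.84. Between neighbours in this order, NAc and PrL differed by edgeR's quasi-likelihood test in the water libraries: the log2 difference PrL minus NAc was -4.05 (SE 0.46, adjusted p = 1.25e-09). Drd1 did not pass the test between S1 and PrL, VBT and S1, or VBT and PrL, and VTA was below VBT, at -2.02 (SE 0.50, adjusted p = 7.20e-04). The rank of the VBT rests on few libraries: in the fentanyl libraries this last difference was -0.05 (adjusted p = 0.869), and VBT was instead below S1, at -1.66 (adjusted p = 2.44e-08).

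Drd5, the other D1-class receptor, had levels within 2-fold of each other in 4 of the 5 regions. It stood at 3.63 ± 0.727 CPM (SD, n = 20) in the NAc, 3.07 ± 0.861 CPM (SD, n = 20) in the VBT, 3.06 ± 0.853 CPM (SD, n = 20) in the PrL and 2.37 ± 0.474 CPM (SD, n = 19) in the VTA. S1, at 0.831 ± 0.628 CPM (SD, n = 19), was lower than each of the other 4 regions by 2-fold or more. The S1 minus PrL difference was -2.04 (SE 0.19, adjusted p = 4.02e-11). No pair among the other 4 regions reached a 2-fold difference, but the VTA was below the NAc, at -0.62 (SE 0.18, adjusted p = 0.00192), and below the VBT, at -0.57 (SE 0.18, adjusted p = 0.00581).

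Drd2, the D2-class receptor and autoreceptor, had its highest levels in the NAc and the VTA. Its NAc level was 125 ± 36.9 CPM (SD, n = 20), with lowest 59.6, median 122 and highest 193 CPM, and its VTA level 43.2 ± 14.5 CPM (SD, n = 19), with lowest 18.1, median 45.6 and highest 67.2 CPM. It was 8.92 ± 8.43 CPM (SD, n = 20) in the VBT, 1.19 ± 0.568 CPM (SD, n = 20) in the PrL and 0.956 ± 0.901 CPM (SD, n = 19) in S1. In the water libraries VTA minus NAc was -1.08 (SE 0.31, adjusted p = 0.00227), just over a 2-fold difference, against -2.02 (adjusted p = 4.17e-10) in the fentanyl libraries, and VTA minus VBT was 2.15 (SE 0.32, adjusted p = 2.88e-07). S1 and PrL did not differ beyond their spread by the test.

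Drd3, a D2-class receptor known for its expression in the ventral striatum, had the same 3 leading regions at a lower level. The NAc had 6.71 ± 2.08 CPM (SD, n = 20), the VTA 1.06 ± 0.850 CPM (SD, n = 19) and the VBT 0.391 ± 0.202 CPM (SD, n = 20). In the cortex it was at the limit of detection, with 0 counts in 12 of 19 S1 and 16 of 20 PrL libraries, where 3 counts would be at most 0.107 CPM in S1 and 0.0966 in PrL. The PrL library with most Drd3, female water 5 at 0.203 CPM (8 counts), is also 1 of 2 PrL libraries with a high olfactory bulb list: this list summed to 171 CPM there and to 324 in male water 3, against 8.63 at most in the 10 fentanyl libraries. The part of that tissue in the Drd3 counts was not tested.

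Drd4, a D2-class receptor, was low everywhere and lowest in the NAc and VTA. It was 0.622 ± 0.229 CPM (SD, n = 20) in the VBT, 0.454 ± 0.220 CPM (SD, n = 19) in S1 and 0.391 ± 0.105 CPM (SD, n = 20) in the PrL, and these 3 regions did not differ by 2-fold. In the NAc it was 0.126 ± 0.0921 CPM (SD, n = 20), between 1 and 11 counts a library. In the VTA it was 0.0499 ± 0.0464 CPM (SD, n = 19), with 0 counts in 6 of 19 libraries, where 3 counts would be up to 0.110 CPM. Both lay below the other 3 regions in the water libraries, with S1 minus NAc at 2.13 (SE 0.33, adjusted p = 6.75e-07) and VTA minus S1 at -3.28 (SE 0.39, adjusted p = 5.67e-10).

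Counted by pair of regions, the receptor genes that differed at least 2-fold with an adjusted p under 0.05 were 5 of 5 between S1 and NAc (14.7% of all 21468 genes tested) and between VTA and S1 (25%). The count was 4 between VTA and VBT (16%), VTA and PrL (24.5%), VTA and NAc (22.1%), VBT and NAc (24.9%) and PrL and NAc (13.4%). It was 3 between VBT and S1 (25.6%), 2 between VBT and PrL (26%) and 1, Drd5, between the 2 cortical regions (6.18%).

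Compared per kilobase of exon, Drd1 led the family in both cortical areas and the NAc, and Drd2 in the VTA and VBT. Drd1 made up 77.8% ± 6.58 (SD, n = 19) of the family's summed CPM per kilobase in S1, against 69.4% ± 4.56 (SD, n = 20) in the PrL. Drd2 made up 86.7% ± 7.66 (SD, n = 19) in the VTA and 49.8% ± 4.43 (SD, n = 20) in the VBT. In the NAc, Drd1 held 53.1% ± 1.63 and Drd2 42.3% ± 1.55 (SD, n = 20 each). Drd5 held 20.5% ± 10.1 in the VBT and 19.0% ± 4.29 in the PrL, and Drd4 nowhere more than 4.25% ± 2.38, its share in S1 (SD, n = 19).

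The balance of Drd1 to Drd2 was tight in the NAc and loose elsewhere. The log2 ratio of their CPM per kilobase was 0.33 ± 0.09 (SD, n = 20) in the NAc, although Drd1 itself ranged from 111 to 335 CPM. It was -4.29 ± 0.81 (SD, n = 19) in the VTA, -1.52 ± 0.99 (SD, n = 20) in the VBT, 3.05 ± 0.53 (SD, n = 20) in the PrL and 3.03 ± 0.71 (SD, n = 19) in S1. In the NAc both genes had 1778 counts or more in every library. Elsewhere Drd2 had 11 to 89 counts in the PrL and 12 to 163 in S1. Drd1 had 48 to 182 in the VTA and 22 to 1311 in the VBT. The part of counting error in the wider ratios was not tested. Across the 20 NAc libraries, log2(CPM + 1) of Drd1 and Drd2 had a Pearson r of 0.98, and Drd3 had 0.54 with Drd1 and 0.56 with Drd2. These points share library and dissection, and no p is given.

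Drd1 and Drd2 of the NAc moved with a list of striatal neuron genes across libraries, and Drd3 and Drd5 less so. The score of the striatum list (mean log2(CPM + 1) of 5 genes, among them Rgs9, Ppp1r1b, Rarb and Pde10a) had r = 0.99 with Drd1, 0.97 with Drd2, 0.59 with Drd3 and 0.01 with Drd5 over the 20 libraries. In the VTA, Drd2 had r = 0.97 (n = 19) with the score of the midbrain dopamine neuron list (Foxa2, Pitx3, En1, Th and the transporters Slc6a3 and Slc18a2) and Drd1 -0.20. In the VBT, Drd1 and Drd2 had r = 0.90 each (n = 20) with the striatum score, and Spearman coefficients of 0.73 and 0.57. With the score of the thalamus list they had r = -0.816 and -0.875 there. In S1, Drd1 had r = 0.86 (n = 19) with the deep cortical layers score (Foxp2, Ccn2, Nxph4, Fezf2 and Bcl11b). That list was not particular to the cortex. Its median summed CPM was 483 in the NAc, 152 in the PrL, 91.2 in the VTA, 75.3 in S1 and 64.15 in the VBT. In punches, fewer cells of a type and less RNA per cell cannot be told apart.

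**Figure D2:**
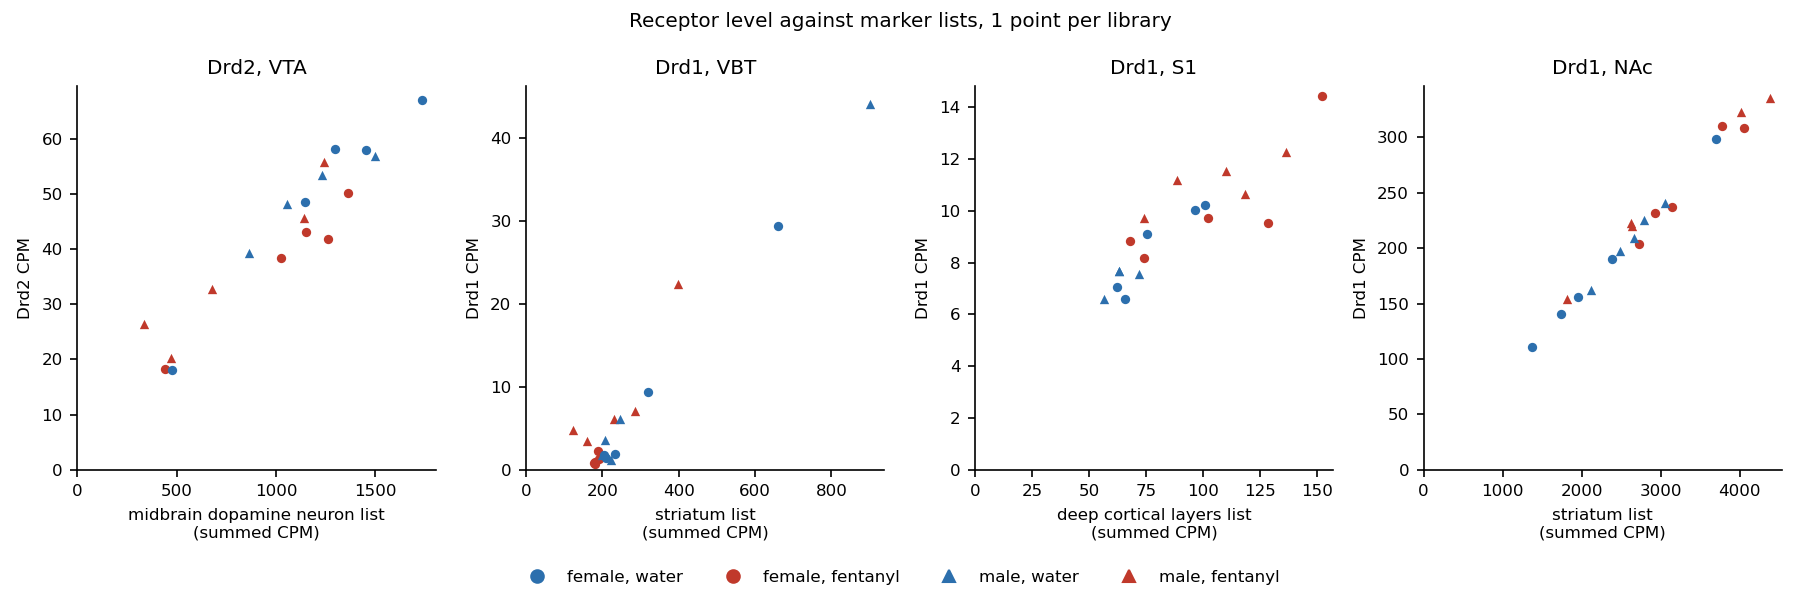
CPM of Drd2 in the VTA and of Drd1 in the VBT, S1 and NAc (y axes) against the summed CPM of a marker list (x axes), 1 point per library. In the NAc the points lie close to a line, and in the VBT 3 libraries (male water 3, female water 2 and male fentanyl 5) lie above the others on both axes.

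The genes most like each receptor over all 98 libraries, by Pearson r of log2(CPM + 1) among genes with a mean of at least 1 CPM, were Gng7 (0.98), Gm10754 (0.96) and 4833415N18Rik (0.96) for Drd1. They were Klhl13 (0.97), Pde1c (0.96) and Stk32a (0.95) for Drd2, Upb1 (0.96), Pou3f4 (0.95) and Abcc12 (0.95) for Drd3, Car4 (0.83), Coch (0.82) and Dagla (0.82) for Drd4 and Robo1 (0.78), Nipsnap2 (0.77) and Shisa9 (0.77) for Drd5. Gng7 encodes the G protein gamma subunit with which Drd1 signals in the striatum. Within the NAc, after subtraction of the sex by exposure means (n = 20), the likest included Drd2 (0.98) and Pde1b (0.98) for Drd1 and were Drd1 (0.98), Pde1b (0.98) and Adora2a (0.98) for Drd2. For Drd3 they were Isyna1 (0.96), Tex9 (0.91) and Amotl1 (0.90), and for Drd5 Snrpd1 (0.86), Cdkn2aipnl (0.83) and Ppm1g (0.82). Pde1b is a phosphodiesterase of striatal projection neurons, and Adora2a the adenosine receptor that marks the Drd2 population. In the VBT, where Drd4 was highest, its likest genes were Kcnab3 (0.84), Mia3 (0.84) and Bbox1 (0.83) (n = 20).

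The comparison of fentanyl with water asks whether perinatal exposure changed receptor transcripts in each region and sex. Of the 25 gene and region combinations, 21 had enough counts to be tested. Drd4 in the VTA and NAc and Drd3 in S1 and PrL did not pass the filter on low counts. A gene was called when its p, adjusted over all genes tested in the region, was under 0.05. By edgeR's quasi-likelihood test, 0 of the 21 were called in females, 0 in males, 1 in the average of the sexes and 0 in the male minus female difference. The share of all genes called was 0.142% in S1 and 0.021% in PrL females, 22% in VTA and 0.662% in NAc males, and 23.1% in the VTA, 1.03% in S1 and 0.697% in the PrL on average, and 0 in the other exposure contrasts. At an unadjusted p under 0.05 the counts were 7, 5, 9 and 1 of 21. The share of all genes at that threshold differed by region. In females it was 12.7% in the VTA, 7.86% in the VBT, 13.9% in S1, 9.53% in the PrL and 9.03% in the NAc. In males it was 34.7% in the VTA, 8.7% in the VBT, 7.15% in S1, 12% in the PrL and 17.6% in the NAc. On average it was 35.4% in the VTA, 8.49% in the VBT, 15.8% in S1, 19.1% in the PrL and 12% in the NAc. In the male minus female difference it was 11.4% in the VTA, 8.03% in the VBT, 4.14% in S1, 2.59% in the PrL and 15.2% in the NAc.

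**Figure D3:**
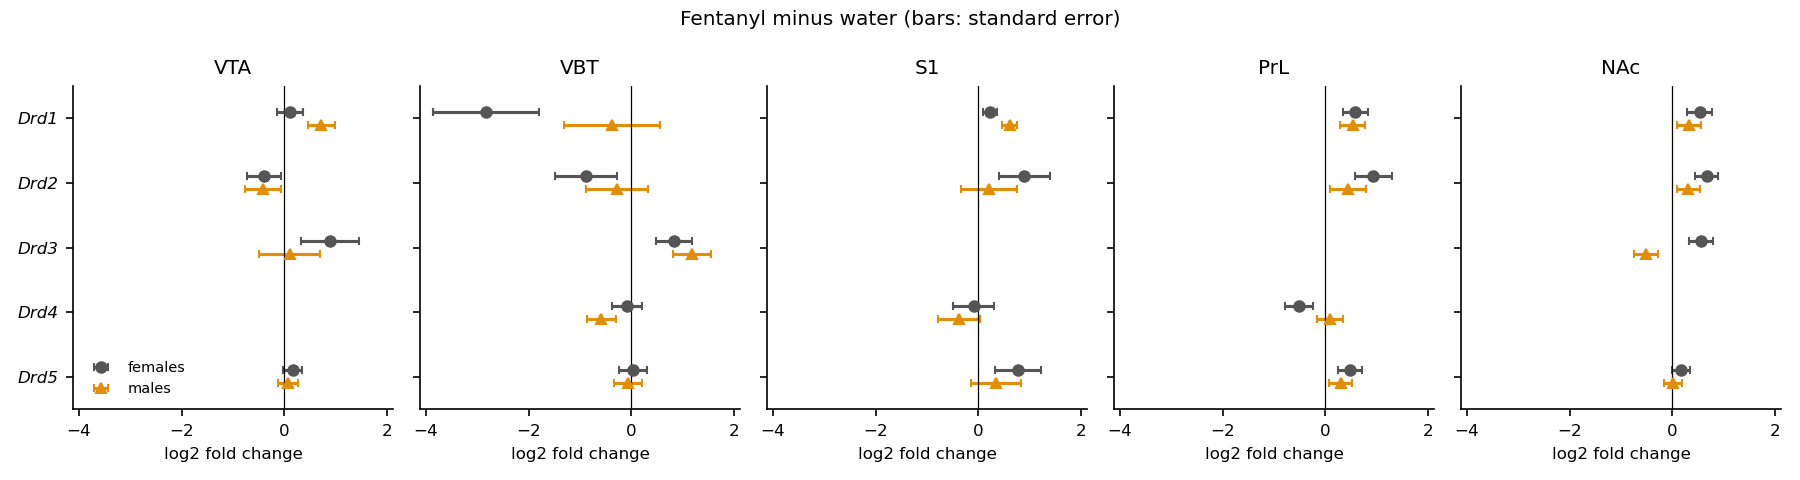
Log2 fold change of fentanyl minus water (x axis) for each receptor gene (y axis) in females and males of the 5 regions, with its standard error. Genes without a point were not tested. Drd1 lies above 0 in both sexes of the VTA, S1, PrL and NAc and below it in the VBT (in VBT males above 0 without the 3 libraries with most striatum list), and Drd3 of the NAc lies above 0 in females and below it in males.

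In S1, Drd1 rose with exposure in the average of the sexes, and it was the receptor gene called. In males the fentanyl libraries had 10.7, 12.3, 11.5, 9.73 and 11.2 CPM and the water libraries 7.68, 7.56, 7.69 and 6.60. All 5 exposed males lay above all 4 water males, as 1.72% of the genes tested also separated in 1 direction or the other. In females the values were 8.83, 9.52, 9.74, 8.16 and 14.4 CPM with fentanyl and 9.10, 7.06, 10.0, 6.61 and 10.2 with water, and the groups overlapped. The average log2 fold change was 0.42 (SE 0.10, adjusted p = 0.0416), or 1.34-fold, in a contrast that called 1.03% of the 19748 genes tested. In males alone it was 0.61 (SE 0.15, adjusted p = 0.617), where 0% of genes were called.

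The S1 libraries with more Drd1 also had more of the deep cortical layers list. The list's summed level, all 5 genes detected in every library, was 74.3 to 136 CPM in fentanyl males against 56.8 to 72.1 in water males, and 68.0 to 152 against 62.4 to 101 in females. None of its 5 genes was called in the average contrast. Of the 5 genes of the cortex list 1 was called there, Neurod6, a transcription factor of cortical excitatory neurons, at 0.44 (adjusted p = 0.0408), and this list summed to 1406 to 1705 CPM in fentanyl and 1245 to 1485 in water females and to 1478 to 1752 and 1368 to 1513 in males. The part of the cortex list in the Drd1 result was not tested. With the deep cortical layers score as a covariate, a fit added after seeing the data, the Drd1 average was 0.18 (SE 0.09, adjusted p = 0.409) and the call was lost. With a log2 fold change still between 0.35 and 0.45, the call was also lost when any 1 of 12 of the 19 libraries was left out (adjusted p = 0.0514 to 0.0967): female fentanyl 2 and 5, female water 1 to 4, male fentanyl 1 to 3 and male water 3 to 5. It was lost too with limma-voom (adjusted p = 0.0593), exon length offsets (0.0529) and the outside-exons covariate (0.0625), at 0.37, 0.41 and 0.45. With the replicate number as a block the call was lost at 0.42 (adjusted p = 0.0542).

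**Figure D4:**
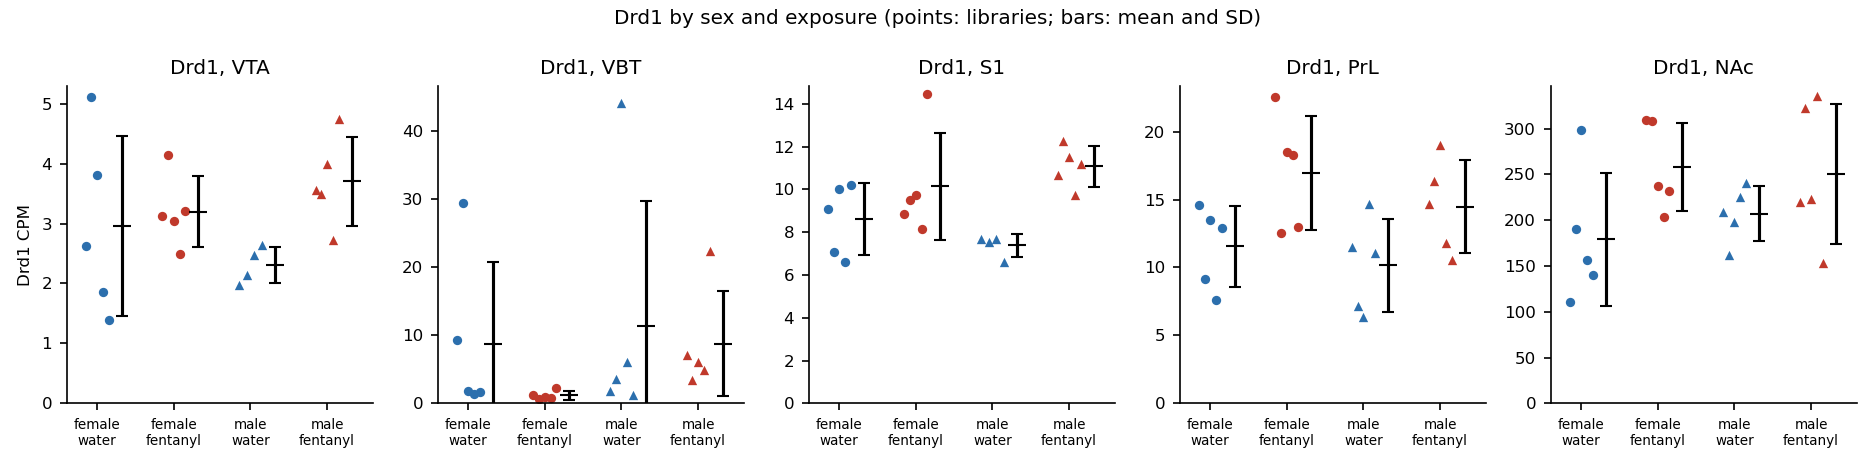
Drd1 CPM (y axes, linear, from 0) in the 4 groups of each region. Points are libraries and bars are mean and SD, cut at 0 in the VBT. Exposed and water males do not overlap in S1 and in the VTA, and in 3 of the 4 VBT groups 1 library lies far above the others.

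The other receptor genes of S1 were not called. Drd2 had 0.265, 1.11, 0.655, 0.980 and 4.55 CPM in fentanyl females and 1.05, 0.931, 0.867, 0.405 and 0.700 in water females. Female fentanyl 5 stood apart, with the highest Drd1, Drd2, Drd3 and Drd5 of all S1 libraries. Drd5 was 1.20 ± 1.16 CPM (SD, n = 5) in fentanyl and 0.694 ± 0.289 (SD, n = 5) in water females. Drd4 was 0.473 ± 0.224 (SD, n = 5) in fentanyl and 0.621 ± 0.362 (SD, n = 4) in water males.

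In the PrL, Drd1, Drd2 and Drd5 had higher means with fentanyl in both sexes, and none was called by edgeR's quasi-likelihood test. Drd1 had 22.6, 12.6, 18.5, 18.3 and 13.0 CPM in fentanyl females and 14.6, 9.15, 13.5, 7.63 and 12.9 in water females. In males it had 14.7, 16.4, 19.0, 11.8 and 10.5 with fentanyl and 11.5, 7.14, 6.38, 14.7 and 11.1 with water. The groups overlapped in both sexes. Its log2 fold change was 0.58 (SE 0.24, adjusted p = 0.457) in females, 0.53 (SE 0.24, adjusted p = 0.409) in males and 0.56 (SE 0.17, adjusted p = 0.104) on average, where 0.697% of genes were called. DESeq2 called the average (adjusted p = 0.0218).

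Drd2 of the PrL, though low, separated by exposure in females. It had 2.40, 1.21, 1.13, 1.04 and 1.35 CPM in fentanyl females and 0.982, 0.738, 0.891, 0.326 and 0.863 in water females, and 2.18% of genes tested had groups that did not overlap there. In males the values were 1.30, 2.37, 1.82, 1.15 and 0.743 with fentanyl and 0.708, 0.590, 1.34, 2.02 and 0.838 with water, and overlapped. Its log2 fold change was 0.93 (SE 0.36, adjusted p = 0.416) in females, where 0.021% of genes were called, and 0.69 (SE 0.25, adjusted p = 0.148) on average. For Drd5 the average was 0.38 (SE 0.16, adjusted p = 0.202), from 3.76 ± 0.976 against 2.77 ± 0.727 CPM in females and 3.12 ± 0.527 against 2.58 ± 0.828 in males (SD, n = 5 each). Drd4 was 0.303 ± 0.0644 with fentanyl and 0.443 ± 0.0933 with water in females (SD, n = 5 each).

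Library measures of the PrL moved with exposure too. Reads outside exons were 11.0% ± 0.68 in fentanyl and 13.3% ± 0.85 in water females, and 11.8% ± 0.73 and 13.7% ± 0.72 in males (SD, n = 5 each). The deep cortical layers list summed to 157 to 239 CPM in fentanyl and 114 to 173 in water females. In males it summed to 113 to 190.1 and 92.9 to 160.1, with all 5 genes detected in every library. With its score as a covariate the averages were 0.46 (SE 0.17, adjusted p = 0.107) for Drd1 and 0.44 (SE 0.20, adjusted p = 0.175) for Drd2. With the percent outside exons as a covariate they were 0.53 (adjusted p = 0.746) and 0.81 (adjusted p = 0.744). With the score of the olfactory bulb list, high in the 2 water libraries given above, they were 0.50 (adjusted p = 0.305) and 0.82 (adjusted p = 0.222).

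In the NAc, no receptor gene was called by edgeR's quasi-likelihood test, although Drd1 and Drd2 had higher means in exposed mice of both sexes. Drd1 had 310.0, 308, 237, 204 and 232 CPM in fentanyl females and 111, 190.2, 298, 156 and 140.2 in water females. In males it had 220.0, 322, 223, 335 and 154 with fentanyl and 209, 162, 198, 226 and 241 with water. In females 4 of 5 water libraries lay below all exposed ones and the remaining one, female water 3, lay among them. The log2 fold change was 0.53 (SE 0.24, adjusted p = 0.544) in females and 0.42 (SE 0.17, adjusted p = 0.341) on average, in contrasts that called 0% and 0% of genes. With the share of reads outside exons as a covariate, the average was called (adjusted p = 0.0374).

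Drd2 of the NAc showed the same libraries high and low. It had 174, 174, 145, 117 and 122 CPM in fentanyl and 59.6, 101, 145, 82.6 and 72.4 in water females. In males it had 123, 180.3, 124, 193 and 97.4 with fentanyl and 118, 88.4, 112, 128 and 152 with water, and the groups overlapped in both sexes. Its log2 fold change was 0.67 (SE 0.23, adjusted p = 0.544) in females and 0.49 (SE 0.16, adjusted p = 0.296) on average. The average was called with limma-voom (adjusted p = 0.0391) and with the outside-exons covariate (adjusted p = 0.0373).

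The marker lists of the NAc libraries ranged widely beside these values. The striatum list, with all 5 genes detected in every library, summed to 2729.7 to 4057 CPM in fentanyl and 1371 to 3700.2 in water females, and to 1813 to 4386 and 2113 to 3053 in males. The cortex list summed to 53.7 to 821 CPM in fentanyl and 247 to 1373 in water females, and to 86.9 to 758 and 359.5 to 700.2 in males. With the striatum score as a covariate, added after seeing the data, the female estimates were -0.03 (SE 0.05, adjusted p = 0.972) for Drd1 and 0.13 (SE 0.06, adjusted p = 0.903) for Drd2. The genes of this list are expressed in the same neurons as both receptors. With the score of the cortex list as a covariate, the female estimates were 0.24 (adjusted p = 0.995) for Drd1 and 0.39 (adjusted p = 0.995) for Drd2.

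Drd3 of the NAc had opposite signs in the sexes. Females had 8.67, 10.9, 7.16, 7.24 and 7.10 CPM with fentanyl and 3.02, 5.53, 9.33, 4.86 and 5.18 with water. Males had 3.50, 6.87, 4.78, 4.57 and 6.86 with fentanyl and 8.10, 5.49, 8.41, 7.40 and 9.28 with water. In females 4 of the 5 water libraries lay below all exposed ones, in males 4 of the 5 lay above all exposed ones, and the remaining one lay among them in each sex. The log2 fold change was 0.56 (SE 0.23, adjusted p = 0.544) in females and -0.51 (SE 0.23, adjusted p = 0.237) in males, where 0.662% of genes were called. The male minus female difference was -1.07 (SE 0.32, adjusted p = 0.126), and with the striatum score as a covariate -0.80 (SE 0.27, adjusted p = 0.127). Without female water 3 it was -1.32 (adjusted p = 0.0305) and was called, as it was with DESeq2 (adjusted p = 0.033) and limma-voom (adjusted p = 0.0137). Drd5 was 3.98 ± 1.0 and 3.55 ± 0.659 CPM in fentanyl and water females and 3.47 ± 0.723 and 3.50 ± 0.577 in males (SD, n = 5 each). Drd4 did not exceed 0.301 CPM in any NAc library.

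**Figure D5:**
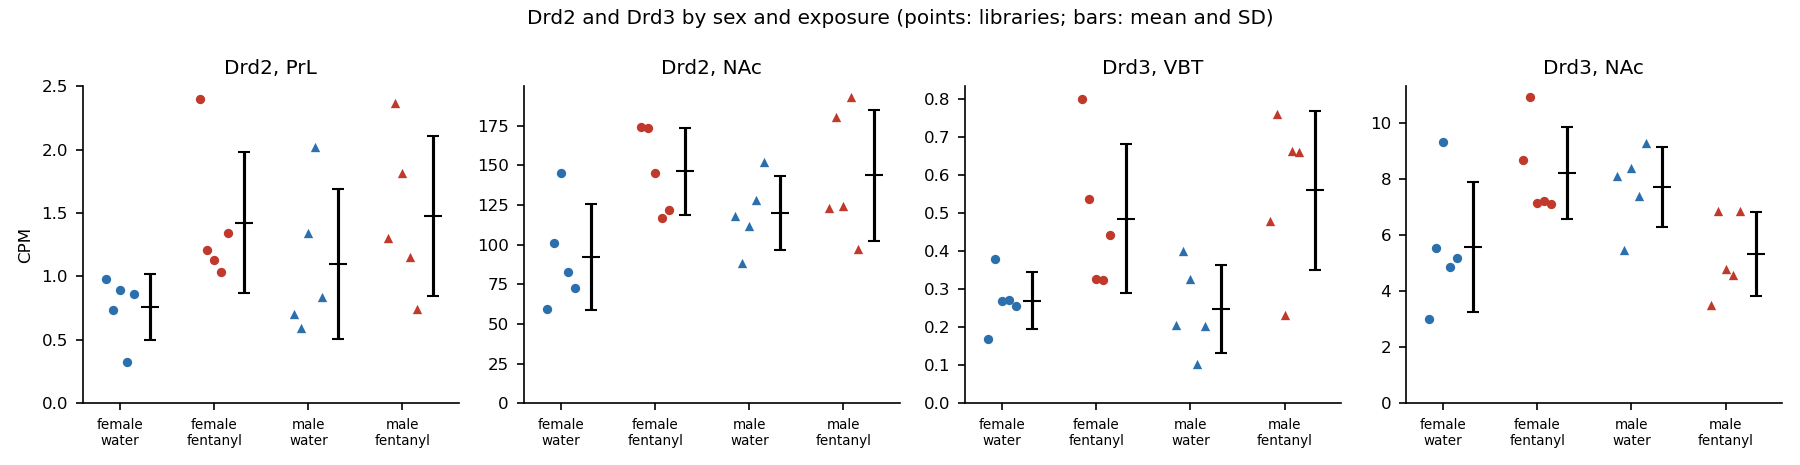
CPM (y axes, linear, from 0) of Drd2 in the PrL and NAc and of Drd3 in the VBT and NAc, by sex and exposure. Points are libraries and bars are mean and SD. Drd2 of PrL females does not overlap between exposures, and Drd3 of the NAc is higher with fentanyl in females and lower in males on average.

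In the VTA, Drd1 was low, with a higher mean in exposed than in water males, and was not called by edgeR's quasi-likelihood test. It had 3.56, 3.50, 4.0, 2.72 and 4.75 CPM in fentanyl males and 1.98, 2.14, 2.48 and 2.64 in water males. The groups did not overlap, as in 22.4% of genes tested in this contrast. In females it had 3.13, 4.14, 3.04, 2.48 and 3.21 with fentanyl and 2.62, 5.11, 3.81, 1.87 and 1.40 with water, and the groups overlapped. The log2 fold change was 0.72 (SE 0.27, adjusted p = 0.061) in males, where 22% of genes were called, and 0.41 (SE 0.18, adjusted p = 0.11) on average, where 23.1% were. The cortex list, with no gene at 0 in a whole group, summed to 10.8 to 66.1 CPM in fentanyl and 8.22 to 14.7 in water males, and to 14.5 to 160 and 6.03 to 23.3 in females, and its part in the Drd1 values was not tested. With GC content offsets the male log2 fold change was 0.59 (adjusted p = 0.228), and 630 genes were called in place of 4355. In males Drd1 was called with DESeq2 (adjusted p = 0.0269), limma-voom (adjusted p = 0.00887) and the outside-exons covariate (0.96, adjusted p = 0.00397), and in the edgeR fit without female water 2, 4 or 5 or male fentanyl 4 (adjusted p = 0.0285 to 0.0470).

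Drd2, the most abundant receptor transcript of the VTA, had lower means with fentanyl, without passing the test. The female libraries had 41.9, 38.4, 18.3, 43.2 and 50.1 CPM with fentanyl and 18.1, 48.6, 67.2, 58.0 and 58.2 with water. The male libraries had 20.3, 45.6, 55.8, 26.5 and 32.8 with fentanyl and 56.9, 39.3, 48.1 and 53.5 with water. The groups overlapped in both sexes. The midbrain dopamine neuron list, with all 6 genes detected in every library, summed to 335 to 1240.0 CPM in fentanyl and 864 to 1499 in water males, and to 440.1 to 1361 and 478 to 1733 in females. The Drd2 log2 fold change was -0.39 in females, -0.42 in males and -0.41 on average. With the score of the list as a covariate, a fit added after seeing the data, it was -0.19 in females and 0.18 in males. The average was then -0.006 (SE 0.06, adjusted p = 0.964). Drd3 was 1.48 ± 1.35 CPM in fentanyl and 0.802 ± 0.324 in water females (SD, n = 5 each), the former through female fentanyl 3 at 3.84. Drd5 was 2.49 ± 0.649 (SD, n = 5) in fentanyl and 2.45 ± 0.475 (SD, n = 4) in water males.

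In the VBT, a thalamic relay, no receptor gene was called, and the share of all genes called was 0% in each of the 4 exposure contrasts. Drd1 had 1.27, 0.657, 0.984, 0.771 and 2.27 CPM in fentanyl and 9.31, 29.4, 1.86, 1.36 and 1.72 in water females. In males it had 7.03, 3.41, 6.12, 4.83 and 22.3 with fentanyl and 1.78, 3.52, 44.1, 6.06 and 1.22 with water. The groups overlapped in both sexes, and female water 2, male water 3 and male fentanyl 5 were far above the rest of their groups. The log2 fold change was -2.83 (SE 1.03, adjusted p = 0.478) in females, -0.38 (SE 0.93, adjusted p = 0.95) in males and -1.60 (SE 0.69, adjusted p = 0.559) on average. Drd2 was high in the same libraries, at 21 CPM in female water 2, 38.3 in male water 3 and 18.8 in male fentanyl 5, against a median of 5.33 over the VBT.

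Those 3 VBT libraries had the highest striatum list, at 660.04 CPM in female water 2, 899.8 in male water 3 and 398 in male fentanyl 5, while the other 17 had 122 to 318 CPM, with all 5 genes detected. Without them, a fit added after seeing the data, the Drd1 log2 fold change was -1.57 (SE 0.62, adjusted p = 0.583) in females, 0.74 (SE 0.62, adjusted p = 0.816) in males and -0.41 (SE 0.44, adjusted p = 0.816) on average. With the striatum score as a covariate it was -0.64 (SE 0.40, adjusted p = 0.68) in females, 0.96 (SE 0.34, adjusted p = 0.297) in males and 0.16 (SE 0.28, adjusted p = 0.874) on average. The Drd2 average was -0.58 (SE 0.43, adjusted p = 0.728) over all libraries and 0.36 (SE 0.17, adjusted p = 0.537) with the score.

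Drd3 of the VBT had higher means with fentanyl in both sexes and was not called, at 4 to 34 counts a library. Females had 0.800, 0.538, 0.328, 0.323 and 0.442 CPM with fentanyl and 0.171, 0.381, 0.268, 0.273 and 0.257 with water. Males had 0.480, 0.762, 0.233, 0.665 and 0.662 with fentanyl and 0.206, 0.401, 0.327, 0.103 and 0.203 with water. The groups overlapped in both sexes. The log2 fold change was 0.83 (SE 0.36, adjusted p = 0.569) in females, 1.17 (SE 0.37, adjusted p = 0.336) in males and 1.0 (SE 0.26, adjusted p = 0.445) on average, and the average without the 3 libraries with most striatum list was 1.09 (SE 0.29, adjusted p = 0.575). Drd4 was 0.584 ± 0.229 CPM in fentanyl and 0.880 ± 0.201 in water males, and Drd5 2.95 ± 1.29 and 3.04 ± 0.685 (SD, n = 5 each).

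Between water males and water females, 0 of the 21 tested combinations were called by edgeR's quasi-likelihood test and 1 had an unadjusted p under 0.05. The share of all genes called in this contrast was 0.0472% in the PrL, 0.0504% in the VTA, 0.0513% in the NAc, 0.0557% in S1 and 0.0898% in the VBT. With limma-voom 2810 genes were called in the VTA and 645 in the NAc, in place of 10 each. The 1 was Drd4 in the VBT, with 0.926, 1.06, 0.573, 0.799 and 1.04 CPM in water males and 0.439, 0.493, 0.413, 0.819 and 0.463 in water females, where 7.82% of genes had an unadjusted p under 0.05 (10.8% in VTA, 3.98% in S1, 3.4% in PrL and 10.7% in NAc). Its log2 difference, male minus female, was 0.75 (SE 0.29, adjusted p = 0.565).

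Genes that supply dopamine or carry the receptors' signal were described by 4 lists. The dopamine supply list (9 genes for synthesis, transport and breakdown) had no calls in any exposure contrast of the VBT, S1, PrL or NAc. The receptor coupling list (20 genes for G proteins, cyclic AMP enzymes, kinases and arrestins) had 2 genes up and 5 down in VTA males and the same counts in the VTA average, in contrasts that called 22% and 23.1% of genes. In VTA males the 2 that rose were Gnal, the G protein alpha subunit of striatal Drd1 signalling (0.33, SE 0.07, adjusted p = 0.0032), and Gnai3 (0.20, SE 0.06, adjusted p = 0.0302), an inhibitory subunit. Those that fell were led by Grk6, a receptor kinase (-0.41, SE 0.08, adjusted p = 0.003), and Caly, which encodes calcyon (-0.47, SE 0.12, adjusted p = 0.0111). In the VTA average they were Gnai3 (0.22) and Gnal (0.17) among genes up and Grk6 (-0.24) and Adcy5, the main striatal adenylyl cyclase (-0.19), among genes down.

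In S1 the coupling list had 1 call in the average contrast (1.03% of all genes), Arrb2, which encodes the arrestin that takes part in receptor internalization. Its log2 fold change was 0.24 (SE 0.06, adjusted p = 0.0457), from 36.8 ± 1.02 CPM in fentanyl and 28.9 ± 2.23 in water females (SD, n = 5 each) and 33.3 ± 4.15 (SD, n = 5) and 30.5 ± 3.88 (SD, n = 4) in males. No gene of this or the other 3 lists was called in any exposure contrast of the VBT, PrL or NAc, nor in females of the VTA or S1. The D1 neuron list (6 genes, such as Tac1 and Pdyn) and the D2 neuron list (4 of its 5 genes matched, such as Adora2a and Penk) had no calls in any region. In NAc females their medians were 0.48 and 0.57, beside 0.53 for Drd1 and 0.67 for Drd2 and a median of 0.0 over all genes, and in VBT females -0.85 and -1.78. In VBT females the summed D2 neuron list had a median of 18.0 CPM with fentanyl and 15.6 with water, where 1 library reached 144 CPM. The summed D1 neuron list had medians of 29.8 and 30.7, and reached 89.7 with water.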

How the data were processed

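Transcripts were measured by RNA sequencing of brain punches, and per the labels' protocols each SMART-Seq v4 library started from 10 ng of RNA. The authors deposited 1 table of raw counts per library, with 55335 genes and 5 lines for reads of no gene (16.2% to 24.0% of a library), which stayed out of totals and tests. HTSeq and GRCm38 are named in the submitters' processing notes, and the aligner, annotation release and strand setting are not given in the sources used here. Symbols, positions and exon lengths came from GENCODE M21 (GRCm38, 55154 identifiers matched), and promoter sequences from RefSeq (GRCm38.p6).

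The deposited counts of a region were fitted without the other regions in edgeR 4.0.16 (quasi-likelihood, TMM, filterByExpr, robust; R 4.3.3), for fentanyl minus water in females, in males, on average, and male minus female, and for male minus female in water. The 48 water libraries were fitted together for pairs of regions. Benjamini-Hochberg adjustment ran over all genes tested, and a call is an adjusted p under 0.05, for regions also at least a 2-fold difference. Standard errors came from the F statistic. The fits were tested on simulated data, where of 100 genes changed 2-fold between 81 (NAc males) and 100 (S1 average) were called. Only genes with a mean of at least 50 counts were changed there. Receptor genes below that level, such as Drd3 of the VBT and Drd4, are therefore not covered. Tools besides were Python 3.11.15, pandas 2.3.3 and numpy 2.4.6. Alternatives were DESeq2 1.42.0 and limma 3.58.1, other filters, offsets and covariates, the replicate number as a block, and each library left out in turn. The fits with a marker score of the receptor-bearing neurons, and without 3 VBT libraries, were chosen after seeing the data. The rule for naming genes was: the 5 receptor genes always, with a fold change where the unadjusted p was under 0.05 and group levels otherwise (medians and ranges for some members), at most the 2 called genes with the smallest p in each direction from each list, and the 3 most like genes by Pearson r. Results of some genes that this rule names are not reported here. The receptor genes, lists, rules and tests were chosen with earlier results of these data known. A count of 0 allows up to 3 counts, a limit for counting error alone, because PCR copies were not marked.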

Additional observations from a re-analysis of the deposited data

Results flagged for a closer look

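In 99 combinations of receptor gene, region and group with 4 to 5 libraries, 18 values from 14 libraries lay far from the rest of their group by Dixon's 95% criterion, and chance flags about 1 in 20 combinations. For 4 of the 18, all Drd3 of the cortex, every other library of the group was at 0, so that any count would stand apart and the comparison says nothing. Of the 18, 17 were the highest of their group and 1 the lowest.

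In S1, female fentanyl 5 stood above the rest of its group for 4 receptor genes at once: Drd1 at 14.4 CPM (nearest other library 9.74), Drd2 at 4.55 (1.11), Drd3 at 0.112 (0) and Drd5 at 3.24 (0.927). In the same region male water 5 was the lowest of its group for Drd1, at 6.60 CPM (7.56). Male fentanyl 5 had Drd3 at 0.0223 CPM, from 1 count, with the rest of its group at 0.

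In the VBT, Drd1 stood out at 29.4 CPM in female water 2 (nearest other library 9.31). It was at 22.3 CPM in the exposed male 5 (7.03) and at 44.1 CPM in male water 3 (6.06), which also had Drd2 at 38.3 (7.17). Drd4 of female water 4 was at 0.819 CPM (0.493) and Drd5 of male water 5 at 4.22 (2.89).

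In the VTA, Drd3 was at 3.84 CPM in female fentanyl 3 (nearest other library 1.25) and at 2.58 in male fentanyl 5 (0.786). In the PrL, Drd2 was at 2.40 CPM in female fentanyl 1 (1.35). Drd3 of the PrL was at 0.203 CPM in female water 5 (0). Exposed male 2 had 0.0798 CPM (0.0226), and water male 3 had 0.0220 (0).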

How the results depend on the processing

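The receptor gene count of VTA males rose from 0 to 1 (Drd1) with DESeq2, limma-voom and a covariate for reads outside exons (percent), and that of the VTA average to 1 with this covariate. The S1 average fell from 1 to 0 with limma-voom (adjusted p = 0.0593), exon length offsets (0.0529), the outside-exons covariate (0.0625) and the added deep layer score (0.409). The PrL average rose from 0 to 1 with DESeq2 (Drd1, 0.0218), the NAc average to 1 with limma-voom (Drd2, 0.0391) and to 2 with the outside-exons covariate (Drd1, 0.0374, and Drd2, 0.0373), and the NAc male minus female count to 1 with DESeq2 (Drd3, 0.033) and limma-voom (0.0137). The cause of these changes was not tested. Leaving out 1 library, the counts ran from 0 to 1 in VTA males, the VTA average (1 without female water 2), the S1 average and the NAc male minus female contrast, and from 1 to 2 for S1 minus PrL, where Drd3 was 2.56 without PrL female water 5. The mean CPM levels moved by less than their spread under every setting tried. Leaving out 1 library cannot move a mean by more than that, so those fits could not have shown otherwise.

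Signs turned with the striatum score, which was chosen after seeing the data, for Drd1 of NAc females (-0.028), and in the VBT for Drd1 on average (0.16) and in males (-0.38 to 0.96) and for Drd2 on average (-0.58 to 0.36), in females (-0.88 to 0.23) and in males (-0.28 to 0.49). This score also turned Drd5 of VBT females (-0.040) and the NAc average of Drd3 (-0.18). NAc male minus female turned for Drd1 (0.16) and Drd2 (0.013). With the midbrain dopamine neuron score, Drd2 (0.18), Drd3 (-0.37) and Drd5 (-0.11) turned in VTA males. Drd5 turned in the VTA average (-0.0034) and Drd2 in VTA male minus female (0.36). With the deep layer score, S1 Drd2 and Drd5 turned in males (-0.65, -0.43) and on average (-0.29, -0.16). PrL male minus female turned for Drd1 with the deep layer score (0.040). Without the 3 VBT libraries, Drd1 of VBT males (0.74), Drd2 of VBT males (0.48), the Drd2 average (0.079) and Drd5 of VBT females (-0.10) turned too. VBT minus S1 of Drd1 was -1.66 in fentanyl libraries, and without 1 library ran from -0.55 (VBT male water 3) to 0.47, with -0.30 without VBT female water 2. VBT minus PrL of Drd1 ran from -1.0 to 0.016 (without VBT male water 5; 0.0092 without male water 1), and was -2.28 (called) in fentanyl libraries, where that of Drd5 was -0.17. VBT minus NAc of Drd5 ran from -0.14 to 0.017 (without VBT female water 2), and S1 minus PrL of Drd4 from -0.033 (without S1 male water 5) to 0.31. VTA minus NAc fell under 2-fold for Drd2 without VTA female water 1 or NAc female water 3 (-0.98 each), and for Drd4 without VTA female water 4 (-1.0) or NAc female water 2 (-0.74).

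The replicate numbers did not meet the rule for pairing in any region and sex: same-numbered fentanyl and water libraries had deviations correlated from -0.39 to 0.40 (in VTA females from 0.006 to 0.403, with 4 of 5 libraries best matched to their own number), and those of different regions from -0.23 to 0.267. With the replicate number as a block the S1 average count was 0 (Drd1 0.42, adjusted p = 0.0542), VBT minus S1 of Drd1 was -0.075 and VTA minus NAc of Drd2 -0.97.

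Over all genes, the count called moved with the setting: around 4355 in VTA males from 42 (VTA male water 3 kept) and 307 and 630 (GC content offsets with and without the replicate block) to 6568 (limma-voom), around 4580 in the VTA average from 60, 523 and 762 in the same settings to 5817 (outside-exons covariate), from 0 (deep layer score) to 645 (DESeq2) around 203 in the S1 average, from 0 (outside-exons covariate) to 1658 (deep layer score) around 133 in the PrL average, and from 2 (replicate block) to 1573 (limma-voom) around 129 in NAc males. From a count of 0 it reached 285 in the NAc average and 1310 in NAc male minus female. In S1 and PrL females it was 28 and 4, and reached 406 and 45 with DESeq2. Leaving out 1 library moved the count from 30 to 502 in the S1 average, 0 to 813 in NAc males, 38 to 289 in the PrL average, 0 to 220 in S1 females and 2659 to 4664 in VTA males. Drd3 in the cortex and Drd4 in the VTA and NAc did not pass the low-count filter of the exposure fits.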
